A study of Homo sapiens with 9 samples.

Results

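The genes described here encode the machinery that joins and divides mitochondria, with the kinase that marks damaged mitochondria for removal. They were taken by name: MFN1, MFN2 and OPA1 for fusion, DNM1L, MFF, FIS1 and MIEF1 for fission, OMA1 as the protease that cuts OPA1, and PINK1. Of the 9 genes, 8 had values among the 22290 genes of the table, and OMA1 was not analysed here. RNA was sequenced from cells labelled IMR-32, the name of an established human neuroblastoma line, in 9 libraries: 3 of parental cells (PAR, labelled wild type), 3 labelled TRAP-1 knockdown (KD) and 3 labelled TRAP-1 overexpression (OE). All carry the same line name with no treatment, TRAP-1 being a mitochondrial chaperone of the HSP90 family. The KD and OE lines had been developed earlier, and the knockdown and expression method and the number of clones are not given in the sources used here. A difference between a line and the parental cells therefore cannot be told apart from a difference between derived lines in general. RNA was isolated in triplicate, and no source says that the triplicates came from separate cultures, so the p-values measure only the spread between these libraries.

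Mitochondria fuse through the outer membrane GTPases MFN1 and MFN2 and the inner membrane GTPase OPA1, which also shapes the cristae. They divide when the cytosolic GTPase DNM1L, also called DRP1, is recruited to the outer membrane by adaptors such as MFF, FIS1 and MIEF1. When the membrane potential is lost, OMA1 cleaves OPA1 and PINK1 builds up on the outer membrane, where it activates the ubiquitin ligase Parkin and starts mitophagy. Much of this control acts on the proteins, by cleavage, phosphorylation and turnover, and is not seen in RNA levels.

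The values are regularized log2 (rlog) levels, in which differences are drawn towards 0, so the sizes given below understate the changes of the counts. All differences were tested with limma over the 22290 genes, and a gene is called when its Benjamini-Hochberg adjusted p is under 0.05. TRAP1 itself was 10.67, 10.66 and 10.65 in the PAR libraries, 10.79, 10.79 and 10.83 in those labelled KD, and 10.67, 10.63 and 10.74 in those labelled OE. It was thus higher, by 0.14 (adjusted p = 1.8e-05 from limma), where the label says knockdown, and it was not called in the libraries labelled OE (difference 0.018, adjusted p = 0.643 from limma). That value was -0.012 without OE3 and 0.042 without OE2, and it was called, at 0.064, with the medians of 20-Mb chromosome blocks removed (adjusted p = 0.0343 from limma). Other annotated genes overlap 28.5% of the exonic bases of TRAP1, which limits its counting. Each direction given below is therefore that of the libraries labelled KD or OE, not of a measured loss or gain of TRAP1 RNA. The line name was not borne out by all of its markers. MYCN, which IMR-32 is known to carry amplified, was at 2.46 to 2.61 over the 9 libraries. The methods of the study state that the line was authenticated, which these marker levels alone cannot settle. Of 10 adrenergic neuroblastoma markers with values, MYCN, PHOX2A, TH and GAP43 were under an rlog of 3 in every library, HAND2 and GATA3 lay between 6.21 and 7.39, and GATA2 and ISL1 were over 8. All 9 mesenchymal markers, among them VIM and CD44, were over 8. The summed linear level of the adrenergic list was 1593 to 1632 in PAR, 1464 to 1501 in the libraries labelled KD and 1499 to 1584 in those labelled OE. That of the 9 mesenchymal markers was 123000 to 123200, 127600 to 128500 and 133000 to 134800 in the same order. VIM, the most abundant of them, went from at most 15.73 in PAR to at least 16.08 with the KD label, while FN1 was 13.97 to 13.98 and 13.00 to 13.02, FOSL1 13.76 to 13.78 and 13.04 to 13.06, and CD44 14.69 and 14.53 to 14.54. The sum was thus higher with the KD label while these 3 members were lower. With the OE label FOSL1 (13.23 to 13.26) and CD44 (14.65 to 14.67) were also lower than in PAR, while FN1 (14.51 to 14.52) was higher. PRRX1 was higher with both labels, at 11.64 to 11.74 in PAR, 12.98 to 13.00 with KD and 12.38 to 12.40 with OE. Of 12 listed epithelial markers 8 had values. EPCAM, ESRP1 and ELF3 were under 3 in every library, GRHL2 was 3.41 to 3.54 and KRT7 5.18 to 5.61. The sum of the 8 epithelial markers was 5832 to 5887, 5917 to 6156 and 5323 to 5385, and its members went both ways. Most of it was KRT18, at 12.06 to 12.08 in PAR, 12.07 to 12.12 with the KD label and 11.96 to 11.97 with the OE label. KRT8 was 8.67 to 8.76 in PAR, 9.07 to 9.10 with the KD label and 9.08 to 9.12 with the OE label. CLDN4 was 10.06 to 10.14, 9.96 to 10.10 and 9.52 to 9.53 in the same order. The 7 fibroblast and endothelial markers summed to 1106 to 1118, 1373 to 1446 and 987 to 1043. Of these, PECAM1 was 9.42 to 9.45 in PAR, 9.89 to 9.93 with the KD label and 9.10 to 9.21 with the OE label, PDGFRB was higher in every library labelled OE (8.55 to 8.62) than in PAR (8.44 to 8.53), and the other 5 were under 6 in every library. The 3 blood cell markers summed to 84.7 to 86.6, 70.8 to 72.7 and 74.0 to 81.1. The part of these in the differences below was not tested. In bulk RNA, fewer cells of one kind and less RNA per cell cannot be told apart.

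Set against PAR, the libraries labelled KD differed in 5 of the 8 measured genes, with OPA1, MFN1, MFF and FIS1 called higher and DNM1L lower. Over all genes 53.7% were called in this comparison (26.9% higher and 26.9% lower), and 75.8% of the 9956 well-expressed ones (mean rlog 8 or more). With the OE label, 5 of the 8 were called against PAR as well, with MFF and OPA1 higher and MIEF1, MFN1 and MFN2 lower, beside 34.8% of all genes (16.9% higher and 18.0% lower) and 56.7% of the well-expressed ones. This count fell to 2 without PAR1, and to 3 without PAR2, without OE1, without the variance trend or after quantile normalization. Between the OE and KD labels 5 of the 8 were called, DNM1L being higher and OPA1, MFN1, MIEF1 and FIS1 lower with the OE label, beside 47.3% of all genes (23.5% higher and 23.8% lower) and 68.3% of the well-expressed ones. The counts of called members thus lie near these backgrounds. No member differed by more than 0.5 in any comparison, whereas 4.98%, 0.897% and 3.56% of all genes were called with such a difference for the KD label, the OE label and between them.

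The libraries labelled KD and those of PAR did not overlap in 6 of the 8 genes, 4 lying above and 2 below, beside 59.2% of all genes (29.6% above and 29.6% below). For the OE label against PAR this held for 5 genes, 2 above and 3 below, beside 43.2% of all genes (21.2% above and the rest below). Between the OE and KD labels it held for 7 genes, 1 above and 6 below, beside 54.1% of all genes (27.6% above and 26.5% below). The median size of the 8 differences, regardless of sign, was 0.081 for the KD label and 0.054 for the OE label, beside 0.081 and 0.048 over all genes and 0.13 and 0.073 over the well-expressed ones, to which all 8 belong. The KD and OE comparisons share the 3 PAR libraries.

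**Figure D1:**
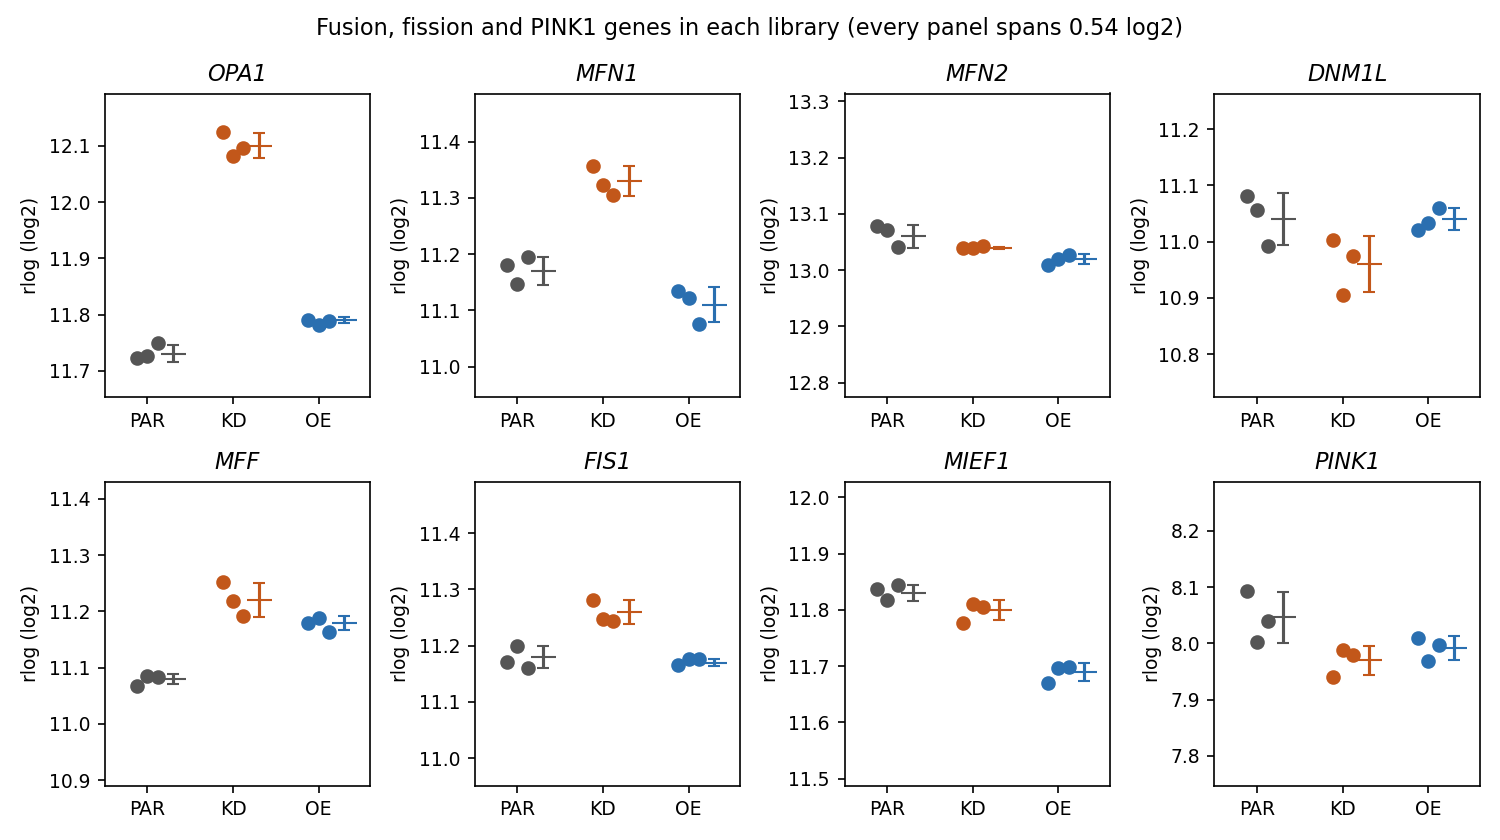
Each panel shows 1 gene, with its rlog level on the log2 scale in each library (points) and the group mean with SD beside them (n = 3 libraries a group). OPA1 and MFN1 stand above the other groups in the libraries labelled KD, and MIEF1 stands below them in those labelled OE.

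Levels were compared between the genes as normalised count equivalents per kilobase of annotated exon (2 to the power of the rlog value, divided by length). The length takes in every annotated exon of a gene, not only those of the transcripts expressed. The SD holds the spread between libraries and not this uncertainty, so the order is that of this scale. In PAR, FIS1 was the most abundant at 1293 ± 17.6 (SD, n = 3), followed by MFN2 at 837 ± 11.5 and MIEF1 at 483 ± 4.68. MFN1 at 388 ± 6.76 and OPA1 at 376 ± 3.98 came next and lay less than 2 SD of MFN1 apart. MFF followed at 350.0 ± 2.22 and DNM1L at 262 ± 8.30, and PINK1 was the lowest at 54.7 ± 1.73. Other annotated genes overlap 41.7% of the exonic bases of PINK1, which limits its counting. The 3 recruiting adaptors of DNM1L were thus each above DNM1L itself on this scale. With the KD label, OPA1 at 486 ± 7.44 came next after MFN2, ahead of MIEF1 at 471 ± 5.86 by less than 2 SD of OPA1 and of MFN1 at 432 ± 7.82 by more. With the OE label, MIEF1 at 437 ± 4.82 came next after MFN2 and was followed by OPA1 at 391 ± 1.41, while MFF at 375 ± 3.27 and MFN1 at 372 ± 7.94 did not differ beyond their spread. FIS1 and MFN2 at the top and DNM1L and PINK1 at the bottom kept their places in all 3 groups.

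OPA1 (ENSG00000198836, chromosome 3 from 193593144 to 193697811, plus strand, GRCh38) encodes the inner membrane fusion GTPase. Its rlog level was 11.72, 11.73 and 11.75 in PAR, 12.12, 12.08 and 12.10 in the libraries labelled KD, and 11.79, 11.78 and 11.79 in those labelled OE. Every library labelled KD was above all the others, and those labelled OE lay just above PAR with no overlap. OPA1 rose by 0.37 (standard error 0.018, 95% confidence interval 0.33 to 0.40, adjusted p = 1.2e-17 from limma) in the libraries labelled KD, which on the linear scale is 29.0%. It rose by 0.054 for the OE label (adjusted p = 0.0205 from limma), a call that was lost when PAR1, PAR2 or OE1 was left out (adjusted p = 0.0764, 0.0631 and 0.0558 from limma). Between the OE and KD labels the difference in OPA1 was -0.31 (adjusted p = 1.1e-15 from limma). OPA1 lies in the last 20-Mb block of chromosome 3, from 180 Mb on, and of the 76 other well-expressed genes there 82.9% were higher for the KD label, with a median of 0.23. OPA1 ranked 25th among these and itself. With the block medians taken from each library, the rise of OPA1 for the KD label was 0.13 (adjusted p = 8.4e-08 from limma), and its difference between the OE and KD labels was -0.090 (adjusted p = 7.4e-05 from limma). The neighbours had, for the OE label, a median of -0.0036. For the KD label they were not alike, with TFRC at -0.72, DCUN1D1 at 0.0077 and SENP2 at 0.038, but PPP1R2 at 0.38 and ACAP2 at 0.44. The block median thus need not be the shift of the genes closest to OPA1. Whether OPA1 rose beyond those was not tested.

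MFN1 (ENSG00000171109, chromosome 3 from 179347709 to 179394936, plus strand) encodes the mitofusin that tethers opposing outer membranes. Its level was 11.18, 11.15 and 11.19 in PAR, 11.36, 11.32 and 11.30 in the libraries labelled KD, and 11.13, 11.12 and 11.07 in those labelled OE. The 3 groups did not overlap, with the KD label highest and the OE label lowest. MFN1 rose by 0.15 (standard error 0.022, adjusted p = 4.2e-07 from limma) in the libraries labelled KD and fell by 0.064 (standard error 0.022, adjusted p = 0.0243 from limma) in those labelled OE. The fall was not called without PAR1, PAR3 or OE3 (adjusted p = 0.0710, 0.108 and 0.145 from limma), without the variance trend (0.0638) or after quantile normalization (0.167). The difference between the OE and KD labels was -0.22 (adjusted p = 5.8e-10 from limma). The median of its 29 neighbours in the block from 160 to 180 Mb was 0.031 for the KD label and 0.029 for the OE label. So MFN1 and OPA1, on the same chromosome arm, lay in blocks with unlike medians. MFN1 has 1 annotated pseudogene, MFN1P1, with which reads could be split.

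MFN2 (ENSG00000116688, chromosome 1 from 11980181 to 12015211, plus strand), the second mitofusin, also tethers mitochondria to the endoplasmic reticulum. It was at 13.08, 13.07 and 13.04 in PAR, at 13.04 in all 3 libraries labelled KD, and at 13.01, 13.02 and 13.03 in those labelled OE. The libraries labelled KD lay within the range of PAR or at its lower edge, and those labelled OE lay just below. The difference of -0.024 for the KD label was not called (95% confidence interval -0.053 to 0.0063, adjusted p = 0.182 from limma). MFN2 with the OE label fell by 0.046 (standard error 0.015, adjusted p = 0.0141 from limma). Its 130 neighbours in the first block of chromosome 1 had a median of -0.058 in the libraries labelled OE, and once block medians were removed MFN2 differed by 0.0064, in the other direction (adjusted p = 0.759 from limma). It was also not called without PAR1, PAR2 or OE1 (adjusted p = 0.0824, 0.0531 and 0.0583 from limma).

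The balance of the fusion genes within a library moved with MFN1 and OPA1. The log ratio of MFN1 to MFN2 was -1.92 to -1.85 in PAR, -1.74 to -1.68 in the libraries labelled KD and -1.95 to -1.88 in those labelled OE. The log ratio of OPA1 to MFN2 was -1.36 to -1.29 in PAR, -0.96 to -0.91 in the libraries labelled KD and -1.24 to -1.22 in those labelled OE. Of both ratios, the libraries labelled KD held the highest values without overlap, and for OPA1 to MFN2 those labelled OE lay between the other groups.

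The stretches before the start sites of OPA1, MFN1 and FIS1 are shown because these genes were higher together in the libraries labelled KD and each holds an exact match to a motif of a factor known at promoters of mitochondrial genes. They are from RefSeq (GRCh38.p14) in the direction of the gene, and the capitals mark the NRF1 motif in OPA1, a palindrome of GCGCA and its reverse complement TGCGC, and the ETS motif CCGGAAGT in the other genes. The stretch of OPA1 is chr3:193592958-193593143 on the plus strand, that of MFN1 chr3:179347459-179347708 on the plus strand, and that of FIS1 chr7:101245082-101245331 on the minus strand.
OPA1: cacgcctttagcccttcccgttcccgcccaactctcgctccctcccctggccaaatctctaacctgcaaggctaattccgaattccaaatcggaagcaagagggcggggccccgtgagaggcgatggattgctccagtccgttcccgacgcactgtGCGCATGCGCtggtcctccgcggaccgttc
MFN1: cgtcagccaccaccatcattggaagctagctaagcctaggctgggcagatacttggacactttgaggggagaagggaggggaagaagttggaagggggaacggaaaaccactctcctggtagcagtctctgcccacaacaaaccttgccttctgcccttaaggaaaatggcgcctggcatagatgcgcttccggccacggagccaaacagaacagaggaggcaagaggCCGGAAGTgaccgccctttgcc
FIS1: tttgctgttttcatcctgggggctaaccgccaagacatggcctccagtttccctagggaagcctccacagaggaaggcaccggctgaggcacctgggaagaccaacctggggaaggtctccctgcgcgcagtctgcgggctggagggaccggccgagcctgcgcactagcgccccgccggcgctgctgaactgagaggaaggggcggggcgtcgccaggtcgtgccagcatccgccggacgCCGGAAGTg
The match in OPA1 began 94 bases before the start site, that in MFN1 22 bases and that in FIS1 9 bases. These are RefSeq start sites, and those of OPA1 and FIS1 lie inside the GENCODE spans given here, so the stretch of FIS1 lies within the gene as GENCODE draws it. Windows from 250 bases before to 50 after the start were given for 7 of the 8 measured genes, in 9 entries (3 of MFF). Both strands were searched for 8 motifs. The NRF1 letters were in 1.23% of all 34796 such windows and here in OPA1 alone, and the ETS letters in 4.13% of all windows and here in MFN1, FIS1 and MIEF1. GGGCGGGG, the letters of SP1, were in 22.8% of all windows and in OPA1, FIS1 and MIEF1, and CCAAT in 34.6% and in 7 of the 9 entries. TGACGTCA (CREB and ATF, 1.84% of windows), AAGATGGCG (YY1, 1.76%), TCAAGGTCA (ERR, 0.354%) and TGATGNAA (ATF4, 3.63%) were in none of the 9. No match overlapped a match of another motif. MIEF1, which holds the ETS letters too, was not higher in the libraries labelled KD, and MFF, which was, holds none of the NRF1 or ETS letters.

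DNM1L (ENSG00000087470, chromosome 12 from 32679200 to 32745650, plus strand) encodes the GTPase that constricts and divides mitochondria. Its level was 11.08, 11.06 and 10.99 in PAR, 11.003, 10.91 and 10.97 in the libraries labelled KD, and 11.02, 11.03 and 11.06 in those labelled OE. The groups labelled KD and PAR overlapped, through PAR3 and KD1, and DNM1L was the only member called in that comparison whose libraries did. It fell by 0.082 (standard error 0.025, adjusted p = 0.0068 from limma) in the libraries labelled KD. Without KD2 the fall was 0.054 (adjusted p = 0.0991 from limma) and without PAR1 it was 0.063 (adjusted p = 0.0633 from limma), so the call rests on these libraries. With the OE label, DNM1L differed from PAR by -0.0043 (95% confidence interval -0.056 to 0.048, adjusted p = 0.925 from limma). It was higher with the OE label than with the KD label by 0.078 (adjusted p = 0.0117 from limma), and by 0.050 without KD2 and 0.067 without OE3 (adjusted p = 0.143 and 0.0506 from limma).

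MFF (ENSG00000168958, chromosome 2 from 227325151 to 227357833, plus strand), a tail-anchored receptor of DNM1L, was at 11.07, 11.09 and 11.08 in PAR, 11.25, 11.22 and 11.19 in the libraries labelled KD, and 11.18, 11.19 and 11.16 in those labelled OE. All 6 libraries with a KD or OE label were above PAR. MFF rose by 0.14 (standard error 0.021, adjusted p = 8.8e-07 from limma) in the libraries labelled KD and by 0.098 (standard error 0.021, adjusted p = 3.9e-04 from limma) in those labelled OE. It was the only member besides OPA1 called higher in both, and both calls held in every alternative run that kept the call rule, whereas that of OPA1 in the libraries labelled OE did not. The difference between the OE and KD labels, -0.044 (95% confidence interval -0.087 to -0.00017), was not called (adjusted p = 0.0944 from limma), and was called without KD3 (-0.058, adjusted p = 0.0434 from limma). MFF has 3 annotated pseudogenes, and MFF-DT on the opposite strand overlaps 8.2% of its exonic bases. The library kit does not mark strand, and MFF-DT was at an rlog near 3 (2.96 in PAR) with a difference of 0.0065 for the KD label.

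FIS1 (ENSG00000214253, chromosome 7 from 101239458 to 101252316, minus strand), a small outer membrane adaptor, was at 11.17, 11.20 and 11.16 in PAR, 11.28, 11.25 and 11.24 in the libraries labelled KD, and 11.17, 11.18 and 11.18 in those labelled OE. The libraries labelled KD were the highest 3, and those labelled OE lay inside the range of PAR. FIS1 rose by 0.081 (standard error 0.021, adjusted p = 0.0013 from limma) in the libraries labelled KD. With the block medians removed the rise was 0.048 (adjusted p = 0.0482 from limma), the median of its 76 neighbours being 0.035. The difference of FIS1 for the OE label was -0.0040 (95% confidence interval -0.046 to 0.038, adjusted p = 0.914 from limma).

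MIEF1 (ENSG00000100335, chromosome 22 from 39499432 to 39518132, plus strand) encodes MiD51, an adaptor that binds DNM1L at the outer membrane and can hold it inactive. Its level was 11.84, 11.82 and 11.84 in PAR, 11.78, 11.81 and 11.81 in the libraries labelled KD, and 11.67, 11.70 and 11.70 in those labelled OE. The libraries labelled OE were the lowest 3, and those labelled KD lay between them and PAR. MIEF1 fell by 0.15 (standard error 0.019, adjusted p = 1.4e-07 from limma) in the libraries labelled OE, or 9.61% on the linear scale, the largest difference of the 8 genes with that label. Its 123 neighbours had a median of -0.047 there, and with the block medians removed MIEF1 was lower by 0.10 (difference -0.10, adjusted p = 1.7e-05 from limma). For the KD label its difference was -0.036 and was not called (95% confidence interval -0.074 to 0.0025, adjusted p = 0.110 from limma). The exons of MIEF1 share 2.8% of their bases with MIURF, an upstream reading frame annotated as a gene on the same strand.

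Among the fission genes the adaptors and the GTPase did not move as one group. The log ratio of MFF to DNM1L was -0.012 to 0.092 in PAR, 0.22 to 0.31 in the libraries labelled KD and 0.10 to 0.16 in those labelled OE, so that the 3 groups did not overlap. The log ratio of MIEF1 to MFF was 0.73 to 0.77 in PAR and lower in every other library, at 0.52 to 0.62 with the KD label and 0.49 to 0.54 with the OE label. Between the arms, the log ratio of OPA1 to DNM1L was 0.64 to 0.76 in PAR, 1.12 to 1.18 in the libraries labelled KD and 0.73 to 0.77 in those labelled OE, where it overlapped with PAR.

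PINK1 (ENSG00000158828, chromosome 1 from 20633458 to 20651511, plus strand) was at 8.094, 8.003 and 8.040 in PAR, 7.940, 7.988 and 7.980 in the libraries labelled KD, and 8.010, 7.968 and 7.997 in those labelled OE. The libraries labelled KD lay below PAR by a narrow gap, and those labelled OE overlapped with both. PINK1 was not called in any of the 3 comparisons. The difference was -0.076 for the KD label (95% confidence interval -0.15 to 0.00098, adjusted p = 0.0912 from limma) and -0.054 for the OE label (95% confidence interval -0.13 to 0.023, adjusted p = 0.302 from limma). Without the variance trend or after quantile normalization the difference for the KD label was called (adjusted p = 0.0320 and 0.0228 from limma). PINK1 is the least certain of these genes in its counting, since other annotated genes, among them PINK1-AS on the opposite strand, overlap 41.7% of its exonic bases. PINK1-AS was at 3.57 in PAR, and its own difference for the KD label was -0.073 (adjusted p = 0.0943 from limma).

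**Figure D2:**
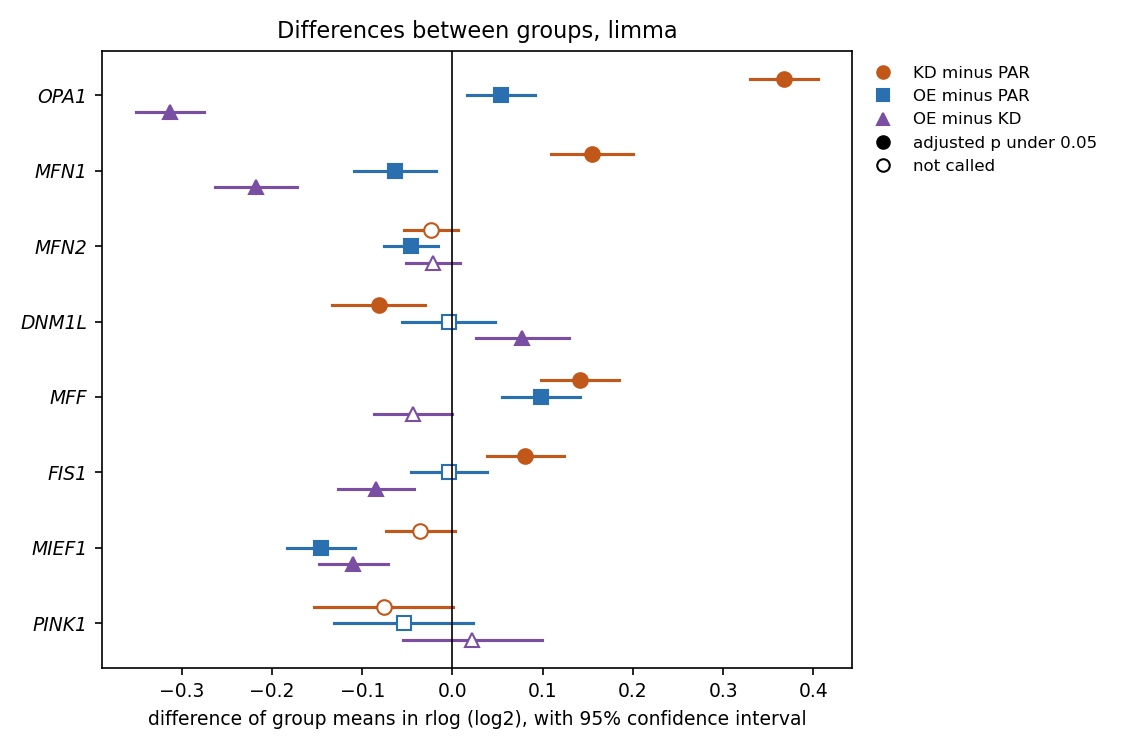
The difference of group means on the rlog (log2) scale is shown for each gene and comparison, with its 95% confidence interval. Filled symbols are called by limma. OPA1, MFN1, MFF and FIS1 lie right of 0 for the KD label, and MIEF1 lies farthest left for the OE label at -0.15.

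The genes that lie near these on the chromosome were compared as a description, over well-expressed genes of the same 20-Mb block. Besides OPA1 and the blocks named above, the medians for the KD label were 0.0030 over the 42 neighbours of DNM1L, 0.019 over the 51 of MFF, -0.0089 over the 123 of MIEF1 and -0.031 over the 168 of PINK1. OPA1 was thus the only member in a block whose median moved by more than 0.1 for the KD label, and no member lay in such a block for the OE label. Copy number was not measured.

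**Figure D3:**
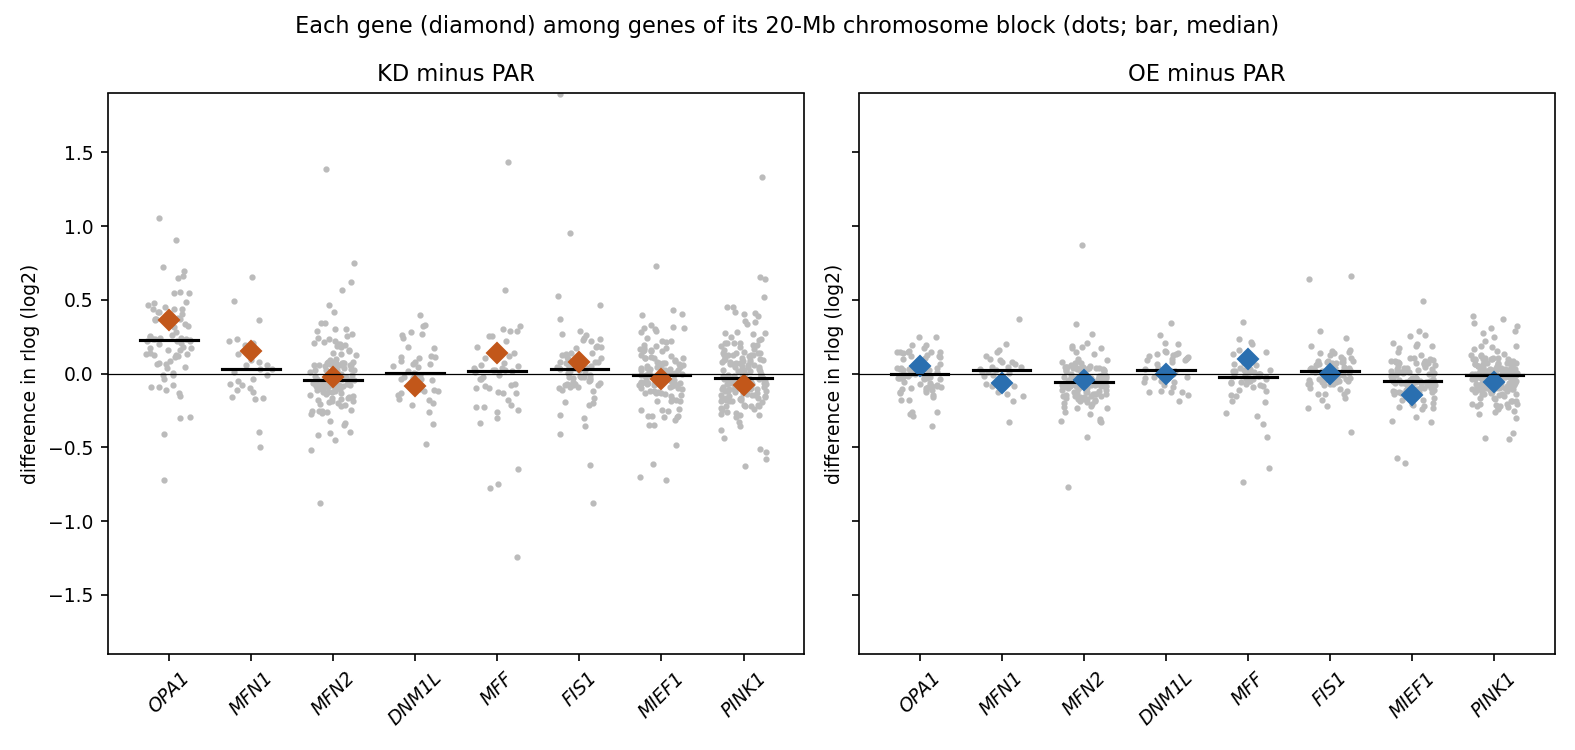
Each diamond is 1 of the 8 genes and each dot another well-expressed gene of its 20-Mb chromosome block, placed by its difference from PAR (log2), with the block median as a bar. The neighbours of OPA1 are shifted up for the KD label, with a median of 0.23, and the other blocks are centred near 0.

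The wider pathway was read from lists of 91 genes, of which 85 had values. For the KD label 33 of the 85 were called higher and 31 lower (75.3%), and for the OE label 25 higher and 25 lower (58.8%), close to the 75.8% and 56.7% of all well-expressed genes. The lists thus held genes of both directions, and the median difference was 0.0025 for the KD label and 0.0062 for the OE label, beside -0.00051 and 0.00039 over all genes.

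Of 6 genes of fusion and its partners, 2 were called higher and 2 lower for the KD label. This is 66.7%, beside 53.7% of all genes and 75.8% of the well-expressed ones. MIGA2, a mitoguardin that promotes fusion through phospholipids of the outer membrane, fell from 10.26 ± 0.041 (SD, n = 3) to 9.74 ± 0.043, a difference of -0.52 (adjusted p = 1.4e-16 from limma) and larger in size than that of any member. SLC25A46, an outer membrane protein that binds the fusion machinery, fell by 0.14 (adjusted p = 1.1e-06 from limma). For the OE label 1 of the 6 was called higher and 4 lower, MIGA2 at -0.19 (adjusted p = 1.9e-06 from limma) being the farthest. With this label 83.3% of the list was called, beside 34.8% of all genes and 56.7% of the well-expressed ones. Whether the list differs from these shares was not tested.

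OMA1 was not analysed here, and of 7 other genes of OPA1 processing and inner membrane proteases 2 were called higher and 3 lower for the KD label. The called share was 71.4% for the KD label, beside 53.7% of all genes and 75.8% of the well-expressed ones. It was 42.9% for the OE label, beside 34.8% and 56.7%, and whether the list differs from these shares was not tested. YME1L1, the other protease known to cut OPA1, fell by 0.069 for the KD label (adjusted p = 1.1e-04 from limma) and differed by -0.018 for the OE label (adjusted p = 0.375 from limma). HTRA2, a protease of the intermembrane space, rose by 0.23 (adjusted p = 7.7e-10 from limma) and the matrix protease LONP1 by 0.12 (adjusted p = 1.6e-07 from limma). SPG7 and AFG3L2, the subunits of the m-AAA protease, fell by 0.12 (adjusted p = 2.6e-06 from limma) and 0.079 (adjusted p = 0.0020 from limma). For the OE label SPG7 fell by 0.11 and STOML2, a scaffold of inner membrane proteases, by 0.11 (adjusted p = 1.1e-05 and 2.9e-06 from limma), LONP1 rose by 0.083 (adjusted p = 2.0e-04 from limma), and the other 4 were not called.

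Of 13 genes of the fission machinery, 5 were called higher and 5 lower for the KD label, and 2 higher and 4 lower for the OE label. These shares, 76.9% and 46.2%, stand beside 53.7% and 34.8% of all genes and 75.8% and 56.7% of the well-expressed ones. Whether the list differs from them was not tested. MIEF2, which encodes MiD49 and is the paralogue of MIEF1, rose by 0.26 for the KD label (adjusted p = 5.1e-06 from limma), from 7.97 ± 0.072 to 8.23 ± 0.052 (SD, n = 3). For the OE label the difference in MIEF2 was 0.064 and was not called (adjusted p = 0.278 from limma). SPIRE1, which nucleates actin at sites of constriction in one of its forms, fell by 0.23 for the KD label (adjusted p = 5.0e-07 from limma). MTFR2, a mitochondrial fission regulator, fell by 0.12 and 0.15 for the KD and OE labels (adjusted p = 0.0060 and 0.0015 from limma).

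Among 12 genes that control fission by modifying its proteins, 4 were called higher and 6 lower for the KD label, and 3 and 6 for the OE label. The called 83.3% and 75.0% stand beside 53.7% and 34.8% of all genes and 75.8% and 56.7% of the well-expressed ones. Whether the list differs from these was not tested. SENP5, which removes SUMO from DNM1L, rose by 0.32 for the KD label (adjusted p = 1.3e-13 from limma) and fell by 0.089 for the OE label (adjusted p = 0.0027 from limma). It lies in the same block of chromosome 3 as OPA1. The phosphatase PGAM5 fell by 0.29 and AKAP1, which anchors protein kinase A to the outer membrane, by 0.22 for the KD label (adjusted p = 1.4e-13 and 1.5e-11 from limma). For the OE label PGAM5 fell by 0.19 and AKAP1 by 0.10 (adjusted p = 6.2e-09 and 7.2e-05 from limma). MUL1, a ligase of the outer membrane that acts on MFN2 and DNM1L, fell with both labels, with differences of -0.19 for KD and -0.16 for OE (adjusted p = 1.4e-07 and 3.2e-06 from limma). CCNB1, the cyclin of the kinase that phosphorylates DNM1L in mitosis, rose by 0.095 for the KD label and 0.14 for the OE label (adjusted p = 1.8e-07 and 1.8e-10 from limma).

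In the list of PINK1 and Parkin mitophagy, 9 of 18 genes were called higher and 6 lower for the KD label, and 9 higher and 5 lower for the OE label. Called shares of 83.3% and 77.8% stand beside 53.7% and 34.8% of all genes and 75.8% and 56.7% of the well-expressed ones. Whether the list differs from the latter shares was not tested. The autophagy receptor NBR1 rose by 0.36 and FBXO7, which takes part in Parkin recruitment, by 0.22 for the KD label (adjusted p = 3.5e-20 and 2.2e-13 from limma), and by 0.13 and 0.11 for the OE label (adjusted p = 1.1e-08 and 2.2e-06 from limma). TOMM40, the channel of the import complex at which PINK1 is stabilised, fell by 0.38 for the KD label and 0.17 for the OE label (adjusted p = 8.5e-18 and 6.0e-09 from limma). Its partner TOMM20 rose by 0.20 and 0.19 (adjusted p = 3.6e-15 and 3.0e-14 from limma). SQSTM1, the receptor p62, fell by 0.18 for the KD label and 0.24 for the OE label (adjusted p = 2.2e-11 and 5.8e-14 from limma).

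Of the mitophagy receptors, BNIP3 and BNIP3L differed from PAR by more than any of the 8 genes with either label. BNIP3, an outer membrane receptor induced in hypoxia, was 12.12 ± 0.011 (SD, n = 3) in PAR, 12.68 ± 0.0054 in the libraries labelled KD and 12.95 ± 0.0050 in those labelled OE. It rose by 0.56 (adjusted p = 1.8e-24 from limma) and 0.83 (adjusted p = 1.1e-27 from limma). Its homologue BNIP3L, also called NIX, rose by 0.44 and 0.66 (adjusted p = 4.1e-18 and 9.1e-22 from limma). PPTC7, a phosphatase that restrains both receptors, fell by 0.30 and 0.18 (adjusted p = 1.2e-14 and 7.9e-09 from limma). FBXL4, the ubiquitin ligase subunit that removes them, rose by 0.41 and 0.17 (adjusted p = 2.6e-14 and 9.1e-06 from limma). Over the list, 6 of 11 genes were called higher and 3 lower for the KD label, and 5 higher and 1 lower for the OE label. These shares, 81.8% and 54.5%, stand beside 53.7% and 34.8% of all genes and 75.8% and 56.7% of the well-expressed ones. Whether the list differs from them was not tested.

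**Figure D4:**
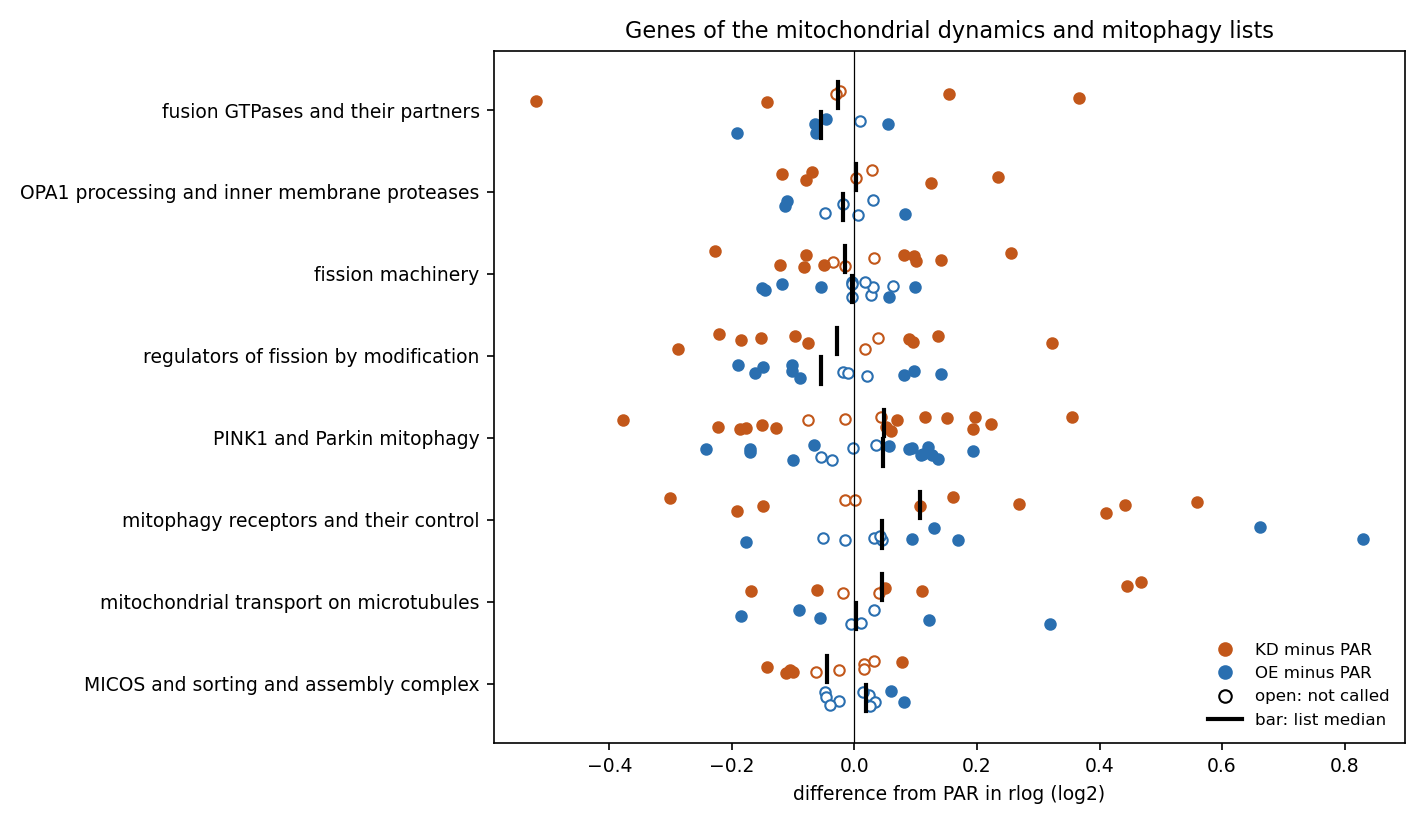
Each point is 1 gene of a list, placed by its difference from PAR on the rlog (log2) scale for the KD label and the OE label. Open points are not called, and bars mark the median of each list. The points farthest right are BNIP3 and BNIP3L for the OE label, at 0.83 and 0.66, and the farthest left is MIGA2 for the KD label at -0.52.

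The genes most like OPA1, MFN1 and MIEF1 over the 9 libraries were found by the root mean square difference of profiles centred on their own means, among 9780 well-expressed genes with a symbol. For OPA1 they were GSK3B (0.016, also on chromosome 3), SNTB1 (0.017, chromosome 8) and PCMTD2 (0.019, chromosome 20). GSK3B went from 12.69 in PAR to 13.05 with the KD label and 12.75 with the OE label. For MFN1 they were HIVEP2 (0.016), DBNDD1 (0.018) and UVSSA (0.018). Those of MIEF1 were UBAP2 (0.0088), SETD1A (0.011) and DNAJC5 (0.013), which were lower by 0.14 each for the OE label (differences of -0.14).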

How the data were processed

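Total RNA of 9 libraries was prepared with the TruSeq RNA kit v2 and sequenced in pairs on an Illumina NovaSeq. The authors trimmed reads (cutadapt), aligned them to GRCh38 (HISAT2), counted them (featureCounts), dropped genes with few reads in all and deposited regularized log2 values (rlog, DESeq2). Versions and annotation are not given in the sources used here. These values do not give the depth of a library, and 2 to the power of rlog summed to 34928732 to 35211774.

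The 3 comparisons were fitted in limma 3.58.1 (R 4.3.3) on all 9 libraries with a variance trend and without a filter. Gene names and exons came from GENCODE 44, which matched 22195 of 22290 IDs. Figures were drawn with matplotlib 3.10.9. The rule for named genes took every member, up to 2 called genes of each list in each direction and comparison, and the 3 most alike profiles of 3 members. Not every list gene that the rule took is named in the text. Alternatives changed the variance model, filter, centring, normalization, pairing, block medians, libraries and call rule. The members, lists and tests were chosen with earlier results of these data known. 1 item of the marker lists is not reported here.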

Additional observations from a re-analysis of the deposited data

Results flagged for a closer look

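The effects of the KD and OE labels, each against the same PAR libraries, differed in 5 of the 8 genes by a test of the difference itself (OE minus KD, limma, adjusted over all genes). OPA1 differed by -0.31 and MFN1 by -0.22. MIEF1 differed by -0.11, FIS1 by -0.085 and DNM1L by 0.078. By the same test 47.3% of all genes differed, and 68.3% of those with a mean rlog of 8 or more, to which all 8 belong. In OPA1 the neighbours on the chromosome had a median of -0.25 in this comparison. The difference in DNM1L was not called with the block medians removed (0.052, adjusted p = 0.0889), and the cause of these differences was not tested.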

How the results depend on the processing

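The calls of OPA1, MFN1, MFF and FIS1 for the KD label, of MIEF1 and MFF for the OE label, and of OPA1, MFN1, MIEF1 and FIS1 between the labels held in all alternatives run that kept the call rule without a size limit. Requiring a difference over 0.5 left 1110, 200 and 793 genes for KD, OE and OE against KD, and 0, 0 and 0 of the 8 members. Without the variance trend PINK1 was called for the KD label (-0.076), 3 members were called for the OE label, where MFN1 (-0.064) and MFN2 (-0.046) were lost, and DNM1L was lost between the labels (0.078). Quantile normalization called PINK1 for the KD label (-0.10) and 3 members for the OE label, where MFN1 (-0.042) and MFN2 (-0.019) were lost and DNM1L (0.020) and FIS1 (0.024) changed sign, as did MFN2 between the labels (0.00094). With equal library medians DNM1L (0.0018) and FIS1 (0.0021) changed sign for the OE label. With the 20-Mb block medians removed MFN2 changed sign for the KD (0.021) and OE (0.0064) labels, DNM1L was lost between the labels (0.052), and TRAP1 was called for the OE label (0.064). By the unadjusted p MFF was called between the labels (-0.044). The cause was not tested in any of these.

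Leaving out 1 library at a time gave 2 to 5 members for the OE label, with MFN1 at -0.078 to -0.046, MFN2 at -0.057 to -0.038, OPA1 at 0.049 to 0.063, DNM1L at -0.030 to 0.015, FIS1 at -0.012 to 0.0070 and TRAP1 at -0.012 to 0.042. DNM1L was at -0.11 to -0.054 for the KD label and 0.050 to 0.099 between the labels, where MFF was at -0.058 to -0.028 and was called without KD3. PINK1, never called in these fits, was at -0.098 to -0.052 for the KD label and -0.075 to -0.030 for the OE label. With 2 libraries in a group, limma takes the spread from all groups. Libraries of the same number did not deviate together in every pair (correlations -0.071 to 0.14), so the numbers were not used to pair them. A fit with the replicate block changed no call of the members, 5 being called in each comparison, with 12020, 7854 and 10620 genes in all.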

Other observations

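Of 8 genes that move mitochondria along the cytoskeleton, 4 were called higher and 2 lower for the KD label, and 2 higher and 3 lower for the OE label (limma, adjusted over all genes). These shares, 75.0% and 62.5%, stand beside 75.8% and 56.7% of all well-expressed genes. SNPH, syntaphilin, which anchors mitochondria to microtubules in axons, was 8.35 ± 0.058 (SD, n = 3) in PAR, 8.82 ± 0.018 with the KD label and 8.26 ± 0.013 with the OE label. It rose by 0.47 (adjusted p = 5.3e-13 from limma) for the KD label and fell by 0.090 (adjusted p = 0.0492 from limma) for the OE label. ARMCX3, which binds the Miro and TRAK transport complex, rose by 0.45 and 0.32 (adjusted p = 5.2e-13 and 3.4e-09 from limma). RHOT1, which encodes Miro1, rose by 0.11 and 0.12 for the KD and OE labels (adjusted p = 6.4e-05 and 3.3e-05 from limma), and TRAK1, a motor adaptor, fell by 0.17 for the KD label (adjusted p = 3.5e-08 from limma). The mitochondrial myosin MYO19 fell by 0.061 for the KD label and 0.18 for the OE label (adjusted p = 0.0038 and 3.4e-10 from limma).

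Of 10 genes of the MICOS complex, which holds the cristae junctions, and of the outer membrane sorting complex, 1 was called higher and 4 lower for the KD label, and 2 higher and 0 lower for the OE label. With these labels 53.7% and 34.8% of all genes and 75.8% and 56.7% of the well-expressed ones were called, and whether the list differs from them was not tested. CHCHD3, a MICOS subunit, fell by 0.14 and SAMM50, the core of the sorting complex, by 0.11 for the KD label (adjusted p = 3.5e-07 and 1.6e-04 from limma). IMMT, which encodes the MICOS core protein MIC60, rose by 0.059 for the OE label (adjusted p = 8.2e-04 from limma).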
